A study of Mus musculus with 4 samples.

Results

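Adult neurogenesis and proliferation genes were followed in hippocampal RNA by the symbols of 10 genes, all of which were found among the 29300 genes of the deposited count table. The 10 were taken by name, with earlier results of these data known. They were Sox2, Hopx and Nes of neural stem cells, Eomes, Neurod1, Sox11, Dcx and Igfbpl1 of progenitors and immature neurons, and Mki67 and Top2a of dividing cells. The counts came from male C57BL/6 mice aged 7 to 8 months, 2 per group. Control mice received isoflurane anesthesia and tramadol without an operation, and PND mice received the same anesthesia and analgesia followed by an open tibial fracture with intramedullary nailing, the study's model of perioperative neurocognitive disorder (PND), written below as after surgery. The hippocampus was dissected on day 1, and no untreated mice were sequenced here, so both groups share the anesthesia and the analgesic.

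Neurogenesis continues in the adult rodent hippocampus in the subgranular zone of the dentate gyrus. Radial glia-like stem cells there divide rarely and give rise to intermediate progenitors, which produce neuroblasts that mature into granule neurons. Each step is marked by its own transcription factors and structural proteins, and the whole lineage is a small part of the tissue. Most of the genes are not private to it, since astrocytes also express Sox2 and Hopx, vessel cells express Nes, and mature neurons express Neurod1. In RNA of whole tissue, a change in the number of cells and a change in the RNA per cell cannot be told apart.

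Library totals ran from 15763432 to 18573386 counts, and 17144 genes passed the expression filter and were tested by edgeR's quasi-likelihood test. Levels in CPM are counts scaled to the TMM-adjusted total of the tested genes. A gene was called where the Benjamini-Hochberg adjusted p was under 0.05. All 12 hippocampus markers were detected in every library, with summed levels from 1496 to 1717 CPM, and in PND mice Zbtb20, Neurod6 and Calb1 were higher and the CA1 markers Wfs1 (-0.70 on the log2 scale) and Fibcd1 (-0.64) lower. Fold changes depended on base composition. In the eighth of tested genes with the lowest GC content (28.7% to 42.8%) the median log2 fold change was 0.60, and in the highest it was -0.34. A fit that removed each library's trend with transcript length and GC content is therefore given beside the results of the members and of the related lists. With it none of the 12 hippocampus markers was called in edgeR, with Wfs1 at -0.43, Fibcd1 at -0.33 and Calb1 turned from 0.48 to -0.29. The part of hippocampal subfields in the values below was not tested.

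The sequences upstream of the members called higher below, and of both proliferation genes, neither of which was called, are shown. These sets were not tested against each other. Windows of 250 bases before and 50 after the start of transcription were available for 9 of the 10 genes (RefSeq, GRCm38.p6, the assembly of mm10). They were searched on both strands for CCAAT, the box bound by NF-Y, for TTTGAA, the core of the cell cycle homology region, for ACAAT, a core recognized by SOX proteins, for CAGATG, an E-box of the kind bound by NeuroD proteins, and for TGGGAA, the core of the RBPJ site. Capitals mark every match to any of the 5 motifs, no matched bases were shared between motifs, and the sequences read 5′ to 3′ along the gene's own strand.
Sox2, chr3:34649745-34650044, plus strand: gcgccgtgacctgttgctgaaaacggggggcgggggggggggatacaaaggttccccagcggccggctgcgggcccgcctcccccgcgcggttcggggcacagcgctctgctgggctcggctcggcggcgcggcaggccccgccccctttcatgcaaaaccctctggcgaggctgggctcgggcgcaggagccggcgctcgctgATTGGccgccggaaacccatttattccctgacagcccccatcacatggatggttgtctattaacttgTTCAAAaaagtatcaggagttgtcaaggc
Hopx, chr5:77115074-77115373, minus strand: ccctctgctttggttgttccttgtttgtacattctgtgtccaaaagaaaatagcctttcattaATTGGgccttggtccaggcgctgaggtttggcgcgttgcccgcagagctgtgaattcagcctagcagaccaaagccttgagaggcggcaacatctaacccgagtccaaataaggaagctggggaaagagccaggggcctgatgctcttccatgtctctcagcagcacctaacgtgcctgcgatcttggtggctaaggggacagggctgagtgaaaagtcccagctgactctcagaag
Sox11, chr12:27342669-27342968, minus strand: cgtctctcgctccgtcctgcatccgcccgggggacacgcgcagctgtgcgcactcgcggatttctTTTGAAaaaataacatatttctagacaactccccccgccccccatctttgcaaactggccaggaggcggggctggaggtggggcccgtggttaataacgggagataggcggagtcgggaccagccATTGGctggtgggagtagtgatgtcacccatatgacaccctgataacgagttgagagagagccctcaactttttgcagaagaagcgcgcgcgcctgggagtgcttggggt
Neurod1, chr2:79456587-79456886, minus strand: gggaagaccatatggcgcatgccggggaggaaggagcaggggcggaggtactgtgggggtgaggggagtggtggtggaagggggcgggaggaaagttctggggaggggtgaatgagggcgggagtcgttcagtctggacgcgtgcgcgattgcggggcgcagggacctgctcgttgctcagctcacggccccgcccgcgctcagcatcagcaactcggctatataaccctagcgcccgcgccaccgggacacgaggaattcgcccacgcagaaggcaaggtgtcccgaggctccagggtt
Dcx, chrX:143933170-143933469, minus strand: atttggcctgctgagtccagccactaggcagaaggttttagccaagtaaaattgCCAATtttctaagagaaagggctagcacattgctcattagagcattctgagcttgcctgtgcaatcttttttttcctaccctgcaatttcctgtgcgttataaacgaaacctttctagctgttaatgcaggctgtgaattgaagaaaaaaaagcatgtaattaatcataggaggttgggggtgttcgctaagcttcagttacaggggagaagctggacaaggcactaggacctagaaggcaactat
Mki67, chr7:135716330-135716629, minus strand: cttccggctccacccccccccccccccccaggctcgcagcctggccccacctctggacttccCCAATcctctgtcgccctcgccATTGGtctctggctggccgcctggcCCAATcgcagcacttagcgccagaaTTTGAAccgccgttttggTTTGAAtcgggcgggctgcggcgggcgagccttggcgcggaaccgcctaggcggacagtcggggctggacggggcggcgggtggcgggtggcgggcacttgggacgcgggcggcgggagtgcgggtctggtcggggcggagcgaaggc
Top2a, chr11:99024140-99024439, minus strand: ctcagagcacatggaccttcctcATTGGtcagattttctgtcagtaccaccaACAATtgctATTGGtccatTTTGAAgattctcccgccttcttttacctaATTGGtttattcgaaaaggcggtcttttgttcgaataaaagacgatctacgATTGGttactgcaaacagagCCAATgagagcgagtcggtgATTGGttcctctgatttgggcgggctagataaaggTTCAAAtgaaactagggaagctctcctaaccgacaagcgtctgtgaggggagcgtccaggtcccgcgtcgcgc

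The Top2a window held 6 matches to CCAAT, 2 to TTTGAA and 1 to ACAAT. The Mki67 window held 3 to CCAAT and 2 to TTTGAA. Of all 32851 promoter windows of the same length, 37.4% held CCAAT at least once, 3.37% at least 3 times and 0.0791% at least 6 times, while 17.9% held TTTGAA and 2.31% held it at least 2 times. The windows of Sox2 and Sox11 had 1 CCAAT and 1 TTTGAA each, and those of Hopx and Dcx shown here had 1 CCAAT. The Eomes window, not shown, had 2 CCAAT. A second Hopx start, at chr5:77095218-77095517, held 1 CCAAT and 1 ACAAT. The Nes window also held ACAAT once, which occurs in 31.0% of all windows. The Neurod1 window held none of the 5 motifs, and CAGATG and TGGGAA, found in 17.2% and 25.6% of all windows, were in no member's window. Matches are letters only, and binding was not measured.

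Of the 10 genes, 8 passed the filter. Hopx, Sox11, Neurod1, Sox2 and Dcx rose in PND mice, by 1.33-fold to 2.06-fold. Nes, Igfbpl1 and Mki67 did not pass the test. Eomes and Top2a had too few counts to be tested. Against the 5 higher calls among 8 tested members, 13.1% of all genes tested were called higher and 12.8% were called lower. With the study's fold change of at least 1.5 added to the adjusted p, 3 members remained called (Hopx, Sox11 and Neurod1), against 6.75% of all genes tested. The median log2 fold change of the 8 was 0.62, and that of all genes tested was 0.01. In 6 of the 8 (the 5 called genes and Nes) both PND mice lay above both control mice, a pattern that 33.2% of all genes tested had. With the length and GC correction 1 of the 8, Hopx, was called, against 0.841% of all genes tested called higher, and the median of the 8 was 0.58.

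**Figure D1:**
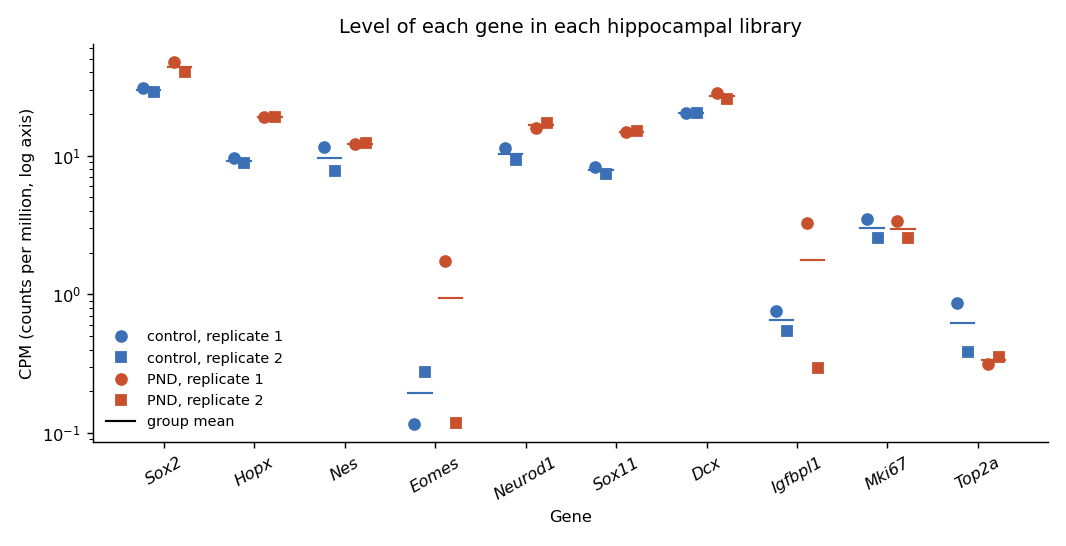
Level of each gene in CPM on a log axis, in each of the 2 control and 2 PND libraries, with a line at the group mean. The PND points of Sox2, Hopx, Neurod1, Sox11 and Dcx lie above both control points, Eomes and Igfbpl1 are high in PND replicate 1 alone, and Mki67 overlaps between the groups.

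Among the stem cell genes the largest rise was in Hopx, which encodes a small homeodomain protein without DNA binding of its own and marks quiescent radial glia-like cells (mm10, chromosome 5, 77086988 to 77115121, minus strand). Its counts were 165 and 162 in controls against 303 and 321 after surgery. In CPM it stood at 9.58 and 8.86 in controls against 19.00 and 19.02 after surgery, so that replicates differed by far less than the groups. The log2 fold change was 1.04 (standard error 0.13, 95% interval 0.74 to 1.35, adjusted p = 0.0049 from edgeR), a fold change of 2.06. Of all genes tested, 3.71% had a larger log2 fold change. Hopx passed the threshold in every fit run, and with the length and GC correction it was at 0.86 (edgeR adjusted p = 0.038). Of its exonic bases, 27.2% overlap the antisense gene Hopxos, which had 4 and 3 counts in controls and 1 in each PND mouse.

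Sox2, an HMG-box transcription factor that maintains the stem cell state, had the highest level of the 10 genes (chromosome 3, 34650405 to 34652461). It had 30.6 and 28.7 CPM in controls against 47.3 and 40.0 after surgery, and the groups did not overlap. Its log2 fold change was 0.56 (standard error 0.11, edgeR adjusted p = 0.014), with a 95% interval from 0.30 to 0.82. Its transcripts have 50.5% GC, a part of the range where the median log2 fold change of tested genes was -0.08, and the correction left the value at 0.58 with an edgeR adjusted p of 0.051. Without control replicate 2 the log2 fold change was 0.51 (edgeR adjusted p = 0.052). Sox2ot, the noncoding gene on the same strand in which Sox2 lies, had 25.9 and 16.8 CPM in controls against 40.3 and 23.9 after surgery. The groups overlapped for Sox2ot, and its log2 fold change of 0.59 did not pass the test (standard error 0.29, edgeR adjusted p = 0.18).

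Nes, which encodes the intermediate filament nestin, did not pass the test (chromosome 3, 87971078 to 87980451). It had 11.6 and 7.77 CPM in controls against 12.2 and 12.3 after surgery. Both PND values were above both control values, but the gap to control replicate 1 was smaller than the difference between the control mice. Nes had a log2 fold change of 0.35 (95% interval -0.15 to 0.84, edgeR adjusted p = 0.27). It moved to 0.65 without control replicate 1 and to 0.08 without control replicate 2, and to 0.57 with the length and GC correction, with edgeR adjusted p-values of 0.063, 0.81 and 0.19. Of the 10 endothelial and pericyte markers, 3 rose and none fell. Their summed level was 366 to 380 CPM in controls against 427 in PND replicate 1 and 587 in PND replicate 2. PND replicate 2 had the highest CPM for 8 of the 10 and PND replicate 1 for 0. With the correction none of these markers was called in edgeR. The part of vessel cells in the Nes values was not tested.

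Astrocyte markers did not move in 1 direction. Of 10, Aqp4, Gja1 and Slc1a2 rose, Aldoc and Aldh1l1 fell and the other 5 did not pass the test, with a median log2 fold change of 0.09 and a summed level of 4753 to 4793 CPM in controls against 4875 to 5102 after surgery. The largest astrocyte rise was that of Aqp4, the main water channel of astrocytes, at 0.73 on the log2 scale. With the correction Aqp4 alone of the 10 was called, at 0.58 (edgeR adjusted p = 0.049), and Gja1, Slc1a2, Aldoc and Aldh1l1 lost their calls. The part of astrocytes in the Sox2 and Hopx values was not tested.

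Of the genes of progenitors and immature neurons, Sox11, a SoxC transcription factor that drives the neuronal program in new neurons, rose the most (chromosome 12, 27334264 to 27342574). It had 8.30 and 7.44 CPM in controls against 14.8 and 15.0 after surgery, a fold change of 1.89. The log2 fold change was 0.92 (standard error 0.14, 95% interval 0.58 to 1.26, edgeR adjusted p = 0.0071), and it stayed called without any 1 of the 4 libraries. With the correction it was 0.71, just short of the threshold (edgeR adjusted p = 0.057).

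Neurod1, a basic helix-loop-helix factor needed for the survival and maturation of newborn granule neurons, had 11.4 and 9.25 CPM in controls against 15.9 and 17.2 after surgery (chromosome 2, 79452521 to 79456751). Its groups did not overlap. It rose by 0.68 on the log2 scale (standard error 0.15, 95% interval 0.32 to 1.05, edgeR adjusted p = 0.021). The correction reduced it to 0.31 (edgeR adjusted p = 0.26), while the median of tested genes of its GC content was also 0.31, and without control replicate 2 or PND replicate 2 the edgeR adjusted p was 0.090 or 0.059, and without the filter on low counts 0.051. Of its exonic bases, 7.37% overlap Cerkl on the same strand, whose counts of 53 and 49 in controls against 43 and 54 after surgery overlapped between groups.

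Dcx encodes doublecortin, the microtubule-binding protein of migrating neuroblasts, and showed the smallest rise of the 5 called genes (chromosome X, 143855842 to 143933311). Its level was 20.3 and 20.2 CPM in controls against 28.4 and 25.5 after surgery. Dcx rose by 0.41 on the log2 scale (standard error 0.11, 95% interval 0.16 to 0.67, edgeR adjusted p = 0.033). Tested genes of its low GC content (41.6%) had a median of 0.60, and with the correction the value turned to -0.09 (edgeR adjusted p = 0.72). The call was also lost without control replicate 1 (edgeR adjusted p = 0.094), control replicate 2 (0.11) or PND replicate 1 (0.14), where the log2 fold change was 0.41, 0.41 and 0.32, and without the filter on low counts (0.079).

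Eomes and Igfbpl1 behaved unlike the other members in that 1 library carried their counts. Eomes, the T-box factor Tbr2 of intermediate progenitors (chromosome 9, 118478212 to 118486132), had 2 and 5 counts in controls, 28 in PND replicate 1 and 2 in PND replicate 2. The exact 95% Poisson interval was 18.6 to 40.5 for the count of 28 and at most 11.7 at its upper end for the other 3 libraries. Igfbpl1, a secreted protein related to the insulin-like growth factor binding proteins that marks neuroblasts (chromosome 4, 45809468 to 45826923), had 13 and 10 counts in controls against 52 and 5 after surgery. Its interval was 38.8 to 68.2 for the count of 52 and 1.62 to 11.7 for the count of 5. These intervals cover counting error only. The groups overlapped for both genes.

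Igfbpl1 had a log2 fold change of 1.42 (SE 0.97), which did not pass the test (edgeR adjusted p = 0.32), and with the correction it was at 1.62 (edgeR adjusted p = 0.37). The uncorrected value was 2.32 without PND replicate 2 (edgeR adjusted p = 0.012) and -1.13 without PND replicate 1 (edgeR adjusted p = 0.35), so that its direction turned with 1 library. It entered the test through its counts in control replicate 1 and PND replicate 1. When genes of low counts were kept, Eomes had an edgeR adjusted p of 0.39. It passed the filter in 3 of the 4 fits without 1 mouse, in each through the 28 counts of PND replicate 1, with log2 fold changes of 1.71 without control replicate 1, 2.90 without control replicate 2 and 3.11 without PND replicate 2 (edgeR adjusted p = 0.41, 0.29 and 0.017). In the last of these, as for the 2.32 of Igfbpl1, PND replicate 1 was the only PND mouse and the spread came from the control mice. Library by library, 7 genes had at least 25 counts and over 4 times the CPM of each other library in PND replicate 1, which were chosen after their values were seen. Besides Eomes and Igfbpl1 these were Slc10a4, Samd3, Amd2, Duox2 and A230065H16Rik, and no gene met the same condition in either control library. Of the 10 markers of ventricular zone neuroblasts and striatum, 0 passed the test in edgeR. Their summed level was 104 CPM in PND replicate 1 and 84.3 to 88.0 in the other libraries. Dlx1 had the largest share of that sum, at 37.2 and 36.2 CPM in controls against 45.4 and 38.3 after surgery. Of the 10, the 6 transcription factors Dlx1, Dlx2, Dlx5, Dlx6, Sp8 and Sp9 had their highest CPM in PND replicate 1. The 4 striatal markers (Drd1, Drd2, Adora2a and Rgs9) did not. PND replicate 1 was also the highest library for 5 of 10 astrocyte and 5 of 12 hippocampus markers, and for 0 to 3 in each other marker list. All 6 transcription factors were detected in every library, and the cells that carry them were not resolved. The spread among the 6 was wide. Sp9 had 158 counts in PND replicate 1 against 156, 123 and 106 in control replicates 1 and 2 and PND replicate 2. Sp8 had 63 counts against 33, 27 and 17 and Dlx5 had 127 against 76, 81 and 73 in the same order, and both these genes and the split of the list were chosen after the values were seen. Their part in these counts was not tested.

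Neither proliferation gene was called in edgeR. Mki67 encodes Ki-67, a coat of mitotic chromosomes present in all cycling cells (chromosome 7, 135689784 to 135716361). It had 60 and 47 counts in controls against 54 and 43 after surgery, and in CPM 3.48 and 2.57 against 3.39 and 2.55. The difference between the mice of 1 group was larger than that between the groups. The log2 fold change was -0.03 (edgeR adjusted p = 0.95) and 0.02 when libraries were scaled by their totals, which moved the median of all genes tested from 0.01 to 0.06. With the length and GC correction it was -0.22 (edgeR adjusted p = 0.71). The uncorrected 95% interval ran from 0.604-fold to 1.59-fold, so that a change of the size seen in Hopx lay outside the interval and one of the size seen in Dcx lay inside it. Top2a, the topoisomerase that untangles chromosomes before division (chromosome 11, 98992943 to 99024189), had 15 and 7 counts in controls against 5 and 6 after surgery, so that both PND counts were below both control counts. Its exact 95% Poisson intervals, which cover counting error only, ran from 8.40 to 24.7 for the count of 15 and from 1.62 to 11.7 for the count of 5. When genes of low counts were kept, Top2a had a log2 fold change of -0.88 (SE 0.61, edgeR adjusted p = 0.47). It passed the filter in 3 of the 4 fits without 1 mouse, through the 15 counts of control replicate 1, with values of -1.36, -0.81 and -0.96 without control replicate 2, PND replicate 1 and PND replicate 2 (edgeR adjusted p = 0.23, 0.53 and 0.50).

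**Figure D2:**
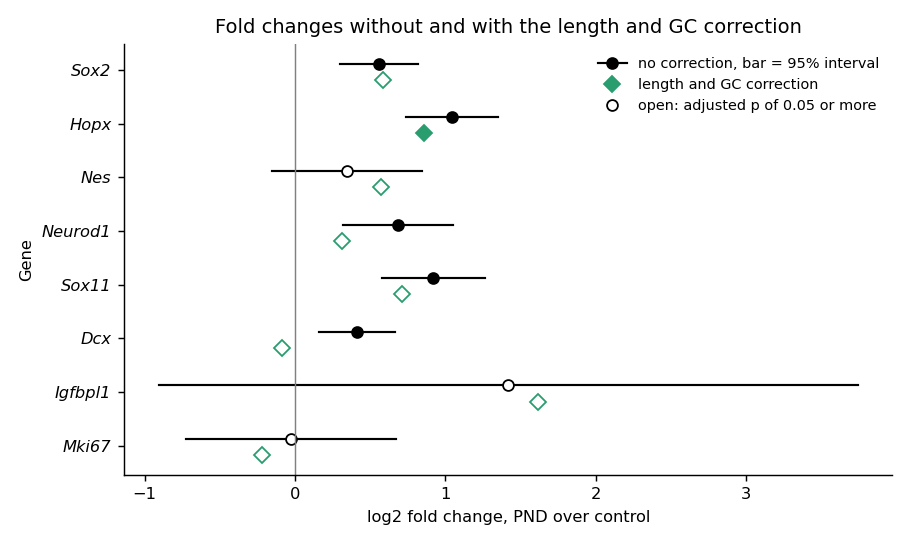
Log2 fold change of PND over control mice for the 8 tested members, with 95% intervals from edgeR (circles), and the value with the length and GC correction (diamonds). Filled symbols have an adjusted p under 0.05. Dcx moves from 0.41 to -0.09 under the correction, Sox2 stays at 0.56 and 0.58, and Hopx is filled in both.

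Per kilobase of exon, the level of the members in the control mice spanned more than 2 orders of magnitude. Sox2 was highest at 14.4 ± 0.662 CPM per kilobase (SD, n = 2), followed by Hopx at 6.08 ± 0.334 and Neurod1 at 3.78 ± 0.552. Dcx at 1.60 and Nes at 1.51 ± 0.417 came next, and their order lay within the spread of Nes. Sox11 was at 0.947 ± 0.0732, Mki67 at 0.301 ± 0.0641 and Igfbpl1 at 0.200 ± 0.0452. The lowest levels were those of Top2a (0.0696 ± 0.0383) and Eomes (0.0469 ± 0.0268), which overlapped. In the PND mice Sox2, Hopx and Neurod1 kept the top of the order at 21.2, 12.5 and 6.05 CPM per kilobase. The level of Sox11 was 1.79 ± 0.0164 in the PND mice, beside Nes at 1.91 ± 0.0176 and Dcx at 2.13 ± 0.164.

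**Figure D3:**
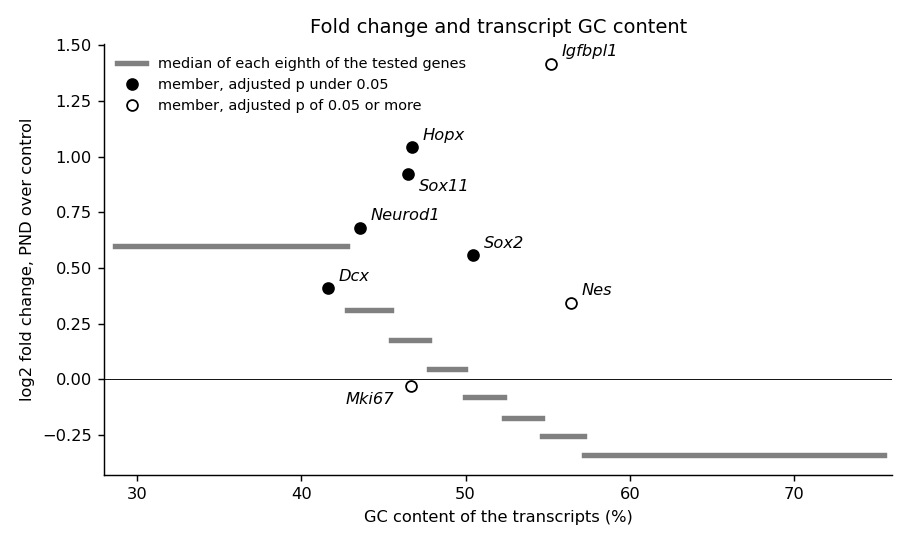
Log2 fold change of the 8 tested members against the GC content of their transcripts in percent, with the median of each eighth of all tested genes as grey bars. Dcx lies below the median of its eighth (0.41 against 0.60), while Sox2, Hopx and Sox11 lie above theirs.

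Set against their GC content, the members separated. Hopx (46.7% GC) and Sox11 (46.5%) lay in an eighth of the tested genes with a median log2 fold change of 0.18, and so did Mki67 (46.7%) at -0.03. Nes (56.4%) and Igfbpl1 (55.2%) lay in an eighth with a median of -0.25. Neurod1 (43.6%) exceeded the median of its eighth by less than Hopx exceeded its own, and Dcx was below its own.

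Around the members, 136 genes of 6 related lists were tested. Of these, 21 (15.4%) were called higher and 7 (5.15%) lower in edgeR, beside the 13.1% and 12.8% of all genes tested. Of 25 further stem and radial glia-like cell genes, all tested, 2 rose, 1 fell and 22 did not pass the test, with a median log2 fold change of 0.16. Id4, an inhibitor of basic helix-loop-helix factors that holds stem cells in quiescence, rose from 26.8 ± 5.09 to 68.1 ± 1.93 CPM (SD over 2 mice a group), or by 1.35 on the log2 scale (edgeR adjusted p = 0.0043), and was still called with the correction at 0.91 (edgeR adjusted p = 0.040). Msi2, an RNA-binding protein of stem cells and astrocytes, rose by 1.01 on the log2 scale, and with the correction by 0.85 (edgeR adjusted p = 0.029). Notch1, the receptor that maintains the stem cell pool, fell by 0.54, with an adjusted p of 0.065 without control replicate 2 and 0.16 with the correction, and 9.76% of its exonic bases overlap antisense genes.

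Of 27 further genes of progenitors, neuroblasts and immature neurons, 26 were tested, 6 rose and 3 fell. The risers were Elavl2, Elavl4, St8sia4, Neurod6, Stmn1 and Bhlhe22. Elavl2, a neuronal RNA-binding protein, went from 45.8 ± 2.28 to 85.5 ± 4.63 CPM (log2 fold change 0.90). Elavl4 of the same family rose by 0.79, and St8sia4, a polysialyltransferase that modifies NCAM, rose by 0.75. The 3 that fell were the tubulins Tubb3 (-0.64) and Tubb2b (-0.58) and the cytoskeletal adaptor Crmp1 (-0.41), none of them called with the correction (-0.35, -0.48 and -0.22). The risers Elavl2, Elavl4 and St8sia4 had 38.1% to 41.1% GC, and with the correction they were at 0.36, 0.07 and -0.03. Of the 6 risers Bhlhe22 alone, a basic helix-loop-helix factor, was called with the correction, at 0.54 (edgeR adjusted p = 0.047). Of the 75 nt windows of Tubb2b, 30.2% also occur in Tubb2a or its pseudogene, so that reads could have been split between these copies. Prox1, which specifies granule neurons, had a log2 fold change of 0.43 and missed the threshold (edgeR adjusted p = 0.054). The genes of this list are not private to new neurons, and Neurod6 and Prox1 are also among the hippocampus markers. Tubb3 and Crmp1 stood at a mean of 322 and 313 CPM in controls, against 20.3 for Dcx. The part of mature neurons in these values was not tested.

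Of 20 replication and S phase genes, 1 rose, 1 fell and 18 did not pass the test, and their median log2 fold change was -0.0025. Pcna, the sliding clamp of DNA polymerase, had 625 and 731 counts in controls against 616 and 672 after surgery, and 13.8% of its 75 nt windows also occur in a pseudogene. The cyclin Ccne2 rose from 2.82 ± 0.0413 to 7.58 ± 0.170 CPM (log2 fold change 1.43, edgeR adjusted p = 0.0061), and 17.4% of its exonic bases overlap Ints8 on the opposite strand. E2f1, a transcription factor of S phase entry, fell by 0.91 on the log2 scale, and without control replicate 2 or PND replicate 2 its adjusted p was 0.065 or 0.071. Neither was called with the correction (0.57 and -0.63). Of 25 genes of G2 and M phase, 20 were tested and 1 rose. Nusap1, a spindle protein, had 27 and 26 counts in controls against 71 and 66 after surgery (log2 fold change 1.48), with an adjusted p of 0.054 without control replicate 2 and 0.090 with the correction. Cdk1, the kinase that drives mitosis, had 9 and 8 counts in controls against 0 and 2 after surgery and was not tested. It was picked after its values were seen. Of the 20 tested, both PND mice lay above both control mice in 3 and below both in 2. Over all genes tested, 33.2% lay above.

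Of 15 cell cycle inhibitors and G1 regulators, 4 rose and none fell. Rb1, the retinoblastoma protein that blocks S phase entry, rose from 22.1 ± 0.569 to 43.5 ± 3.34 CPM (log2 fold change 0.98), and 14.9% of its exonic bases overlap Rcbtb2 and Lpar6 on the opposite strand. Cdkn1b, the inhibitor p27, rose by 0.74, and the D-type cyclin Ccnd2, which acts in the opposite direction, rose by 0.57. Cdkn1c, the inhibitor p57 that holds stem cells in quiescence, had 11 and 40 counts in controls against 59 and 126 after surgery, a log2 fold change of 1.96 (SE 0.55, edgeR adjusted p = 0.042). Its call was lost without control replicate 1 (1.35, edgeR adjusted p = 0.094) or PND replicate 2 (1.37, edgeR adjusted p = 0.12), and 30.7% of its exonic bases overlap the antisense gene Gm44732. With the correction Ccnd2 was called, at 0.59 (edgeR adjusted p = 0.030). The other 3 lost their calls, with Rb1 at 0.46, Cdkn1b at 0.38 and Cdkn1c at 2.29 (edgeR adjusted p = 0.076 for each). The Cdkn1c estimate did not shrink with the correction (SE 0.53), although its adjusted p rose.

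Of 30 niche ligands and receptors, 7 rose and 2 fell. Bmpr2 and Bmpr1a, receptors of the BMP signal that keeps stem cells quiescent, rose by 0.75 and 0.69 on the log2 scale, the Wnt receptor Fzd3 by 0.73 and the growth factor Igf1 by 0.83. Dkk3, a secreted protein of the Dickkopf family, fell by 0.33 and the receptor Fgfr1 by 0.30. None of the 30 was called with the correction by edgeR, where Bmpr2, Fzd3 and Igf1 were at 0.09, 0.15 and 0.46. Igf1 lost its call without control replicate 2 (edgeR adjusted p = 0.095) or PND replicate 1 (0.066), and Fgfr1 without control replicate 2 (0.061) or PND replicate 2 (0.0504).

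**Figure D4:**
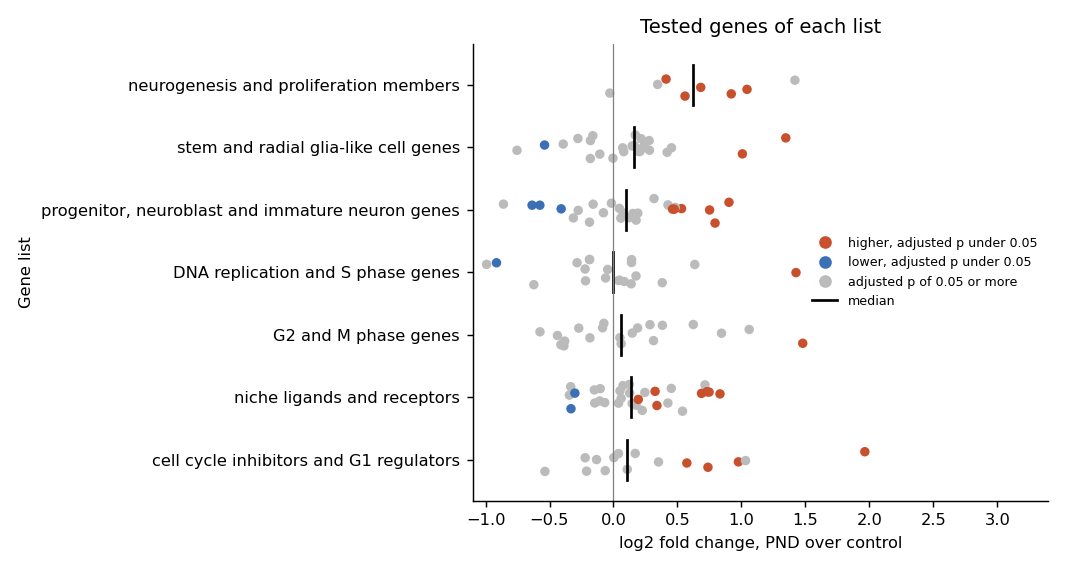
Log2 fold change of every tested gene of the 10 members and of the 6 related lists, with genes called higher in red, called lower in blue and the list median as a black line. The median is 0.62 for the 8 tested members and between -0.0025 and 0.16 for the related lists.

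Cells of other types that divide or share these genes were followed by their markers. Of 10 oligodendrocyte precursor markers, the main dividing cell of the adult hippocampus outside the lineage, Lhfpl3 rose and Olig2, Olig1 and Cspg4 fell, and their summed level was 395 to 422 CPM in controls against 312 to 362 after surgery. Of 10 microglia markers P2ry12 alone rose, with summed levels of 356 to 371 and 350 to 364 CPM. Ependymal and choroid plexus markers, 0 of 10 called in edgeR, ran from 151 to 5455 CPM in the control mice and from 2065 to 3473 in the PND mice. Most of that sum was the choroid plexus gene Ttr, at 90.9 and 5078 CPM in controls against 1914 and 3255 after surgery, while the ependymal marker Foxj1 ran from 13.1 to 20.9 CPM over the 4 libraries. Of the 10 blood cell markers 7 were tested and Ltf fell, with a summed level of 13.2 to 19.9 CPM. With the correction none of these markers was called in edgeR. Their part in the members' values was not tested.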

How the data were processed

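Hippocampal poly(A) RNA of 2 control and 2 PND mice was read as paired ends of 150 nt. The authors mapped filtered reads to mm10 with HISAT and deposited raw read counts per gene. The submitters' processing notes name HISAT2 2.1.0, Bowtie2 2.2.3, TopHat2 and HTSeq 0.6.0, and the use of strand is not given in the sources used here. The authors also deposited a mean signal of scaled counts, a fold change ratio, its log2 value and p-values, which are their own comparison and were not used.

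Counts were filtered with filterByExpr (minimum count 10), scaled by TMM (edgeR 4.0.16, R 4.3.3) and tested by glmQLFit and glmQLFTest with condition as the only term and Benjamini-Hochberg adjustment over all 17144 genes. The study used fold change limits of 1.5 and 0.67 and names no test for the sequencing comparison. CPM were taken over the counts in the tested genes, after TMM. Standard errors were the log2 fold change over the root of the test's F, and 95% intervals used its degrees of freedom. GENCODE M21 gave exon lengths, GC contents and overlaps. Smooth curves of each library against length and GC (mgcv 1.9.3, basis size 8) served as offsets. The other alternatives were DESeq2 1.42.0, other scalings and filters, a replicate block and leaving out each mouse. The code was checked on simulated counts.

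All 10 members were named. From each related list, the up to 3 largest rises and falls with a mean of at least 1 CPM were named, and Pcna, Cdk1, Prox1, Bmpr1a, Ccnd2, Neurod6, Stmn1, Bhlhe22, Sp8, Sp9, Dlx5 and the genes high in 1 library were added after their values were seen. Members and lists were chosen with earlier results of these data known. With 2 mice per group, p-values rest on a spread estimated jointly over genes.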

Additional observations from a re-analysis of the deposited data

How the results depend on the processing

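Hopx was called in all alternatives, and Sox11 in all but the length and GC correction without a replicate block. The number of members called, 5, became 3 without the filter on low counts (Neurod1 and Dcx lost), 3 with the fold change threshold added and 1 with the length and GC correction, and ran from 2 to 6 as each mouse was left out. The 6, without PND replicate 2, include Eomes and Igfbpl1 on PND replicate 1 alone, and leave 4 without them. Over all genes 4450 were called, against 2665 without the filter, 1544 with the fold change threshold, 452 with the correction (144 higher and 308 lower), 2358 with the correction and a replicate block, and 2408 to 4105 without 1 mouse, where the lone mouse of a group is assumed to vary like the other group. Fewer samples or more genes tested enter some of these fits, and the cause of the other changes was not tested. The 28 genes called in the related lists became 16 with the fold change threshold and 4 with the correction. The members' median log2 fold change ran from 0.34, without PND replicate 1, to 0.83, without control replicate 1. Top2a entered the first and Eomes the second of these, and over the same 8 genes the values were 0.38 and 0.74. Direction turned for Dcx with the correction (-0.085, and -0.088 with the block added), for St8sia4 (-0.027 and -0.022), for Mki67 under scaling by totals (0.019, with the median of all genes moved from 0.01 to 0.06) and over the mice left out (-0.26 to 0.20), and for Igfbpl1 over the mice left out (-1.13 to 2.32). Replicate numbers are shared between the groups, but no label says that they pair mice. The deviations of same-numbered mice from their group means correlated at r = 0.26 across genes. With 2 mice per group, exchanging the numbers within 1 group would reverse the sign, so the value cannot show pairing. With the replicate block 5 members and 5279 genes were called. With the correction and the block 4 members were called, Hopx, Sox11, Sox2 and Igfbpl1. DESeq2 called 3935 genes and 4 members, without Dcx (adjusted p = 0.070), and gave no adjusted p for Mki67 and Igfbpl1. Depth limits Eomes and Top2a, with at most 28 counts in a library.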

Other observations

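Genes high in 1 library were also looked for outside the members. In PND replicate 2, 29 genes had at least 25 counts and over 4 times the CPM of each other library, against 7 in PND replicate 1 and 0 in either control library. They include Ptgds, a prostaglandin synthase, with 7114 and 9345 counts in controls against 7378 and 36471 after surgery. Slc6a13, a GABA transporter of the leptomeninges, had 96, 105, 110 and 589 counts in the same order. Aldh1a2, a retinoic acid synthesis enzyme of the meninges, had 120, 94, 105 and 523. Ccr2, a receptor of blood monocytes, had 5, 8, 4 and 42 counts. These genes were chosen after their values were seen. The 29 also held Trh, Sele, Hcar1, Wnt6, Cyp2f2 and H2-Q1, and the tissue that gave these counts was not tested.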
